A study of Mus musculus with 20 samples.

Results

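Secreted growth factors, a cytokine and matrix proteins with known roles in tumor growth were followed as a set of 10 genes: the epidermal growth factor (EGF) family ligands Nrg1, Hbegf and Areg, the growth factors Vegfa, Igf1 and Pdgfb, the cytokine Osm, and the matrix-associated proteins Spp1, Thbs1 and Fn1. They were chosen by name, with earlier results of these data known. All 10 were present among the 15855 genes of the culture table and the 15333 genes of the tumor table. The study asked how B-cell precursors become macrophages under the influence of breast cancer. Macrophages of 2 kinds were cultured for about a week in medium conditioned by 4T1.2 mouse mammary cancer cells: B-MF from B cells of bone marrow (BM), and Mo-MF from monocytes, with 2 libraries of single-cell RNA-seq each. Macrophages sorted from 4T1.2 tumors of BALB/c mice (TAM) gave 4 libraries, called Tumor 2 to Tumor 5 after the numbers in the table, and 12 ATAC-seq libraries came from CSF1R+ and CSF1R- cells of BM and spleen of mice without tumors, 3 of each. The labels call these sorted cells macrophages, whereas the study describes them as B-cell precursors (BMBP). No group carried a genetic change or a drug treatment in the labels.

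The EGF family ligands are made as membrane-bound precursors, are released by proteases and act on ERBB receptors, with NRG1 binding ERBB3 and ERBB4, and HB-EGF and amphiregulin binding EGFR. VEGFA drives the growth of vessels, IGF1 promotes cell survival through its own receptor, PDGF-BB recruits pericytes and fibroblasts, and oncostatin M signals through GP130 receptors. Osteopontin (Spp1), thrombospondin 1 (Thbs1) and fibronectin (Fn1) are deposited around cells and engage integrins, CD44, CD36 or CD47, and macrophages are a known source of all 3 in wounds and tumors.

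Levels are given as the mean corrected count per cell, that is, the mean over all cells of a library of the count that remained after the authors' depth correction. The 2 B-MF libraries held 5237 and 5326 cells, the 2 Mo-MF libraries 4846 and 5389 cells, and the Tumor libraries 2318 to 3180 cells. Median corrected counts per cell were 18350 to 19469 in the cultures and 7651 to 8266 in the tumor. Both tables were normalized separately, so levels from the cultures and from the tumor are set side by side here and were not tested against each other. Cells of other types were present: 3 B-MF cells against 10.3% and 9.54% of Mo-MF cells lay in clusters with all 8 neutrophil markers, and 36.9% to 63.2% of the cells of the Tumor libraries lay in neutrophil-like clusters, although the labels call them macrophages. A cell barcode occurred in more than 1 library in 90 of 20798 cultured cells and in 26 of 10885 tumor cells.

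Among the 9 members abundant enough for the test (a mean of at least 0.1 over the 4 culture libraries), 5 were higher in B-MF and 2 were lower, whereas limma called 39.5% of all 8633 genes tested, 22.6% higher and 16.9% lower. Nrg1, Osm, Hbegf, Pdgfb and Igf1 were higher in B-MF. Fn1 and Thbs1 were lower, and Vegfa and Spp1 did not pass the test. Areg fell below the minimum and received no test. Hbegf passed the minimum only through its B-MF values, and without any filter the counts were again 5 higher and 2 lower, with Hbegf among the higher (limma adjusted p = 0.00482). That fit called 23.1% of 15855 genes, 1919 higher and 1751 lower. The library means of 8 of the 9 members did not overlap between the cultures, 5 higher in B-MF and 3 lower, against 69.6% of all genes tested, 40.0% higher and 29.6% lower.

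Mean Nrg1 was 0.698 for B-MF 1, 0.572 for B-MF 2, 0.228 for Mo-MF 1 and 0.195 for Mo-MF 2. Both B-MF libraries lay above both Mo-MF libraries, a 3.0-fold ratio of the means, with a log2 difference of 1.23 ± 0.09 (SE, limma adjusted p = 1.74e-05, n = 2 libraries each). Nrg1-positive cells (at least 1 count) made up 29.3% and 25.1% of B-MF against 13.9% and 12.4% of Mo-MF, and after each cell was thinned to 5000 counts they made up 13.3% and 10.9% against 5.12% and 4.16%. Hbegf was at 0.217 and 0.198 for the B-MF pair against 0.0776 and 0.0833 for the Mo-MF pair, so the libraries did not overlap and the log2 difference was 0.77 ± 0.05 (SE, limma adjusted p = 1.71e-05). Few cells carried Hbegf, 14.3% and 12.7% of B-MF against 6.11% and 6.49% of Mo-MF. Areg was almost undetected in both cultures, with 5 positive cells in B-MF 1, 5 in Mo-MF 2 and none in B-MF 2 or Mo-MF 1. The 0 of 5326 cells in B-MF 2 allows a share of cells with a count of up to 0.0563%, for counting error only, and does not limit the share that express the gene at a lower level.

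Osm, a cytokine of the interleukin-6 family, reached 1.39 and 1.20 in B-MF against 0.555 and 0.490 for Mo-MF. The libraries did not overlap, and the log2 difference was 1.16 ± 0.08 (SE, limma adjusted p = 1.34e-05). Pdgfb was at 1.33 and 1.22 in B-MF against 0.725 and 0.701 in Mo-MF, again without overlap, a log2 difference of 0.76 ± 0.06 (SE, limma adjusted p = 2.48e-05). The sum of 5 platelet or megakaryocyte markers was 144 and 140 per cell in B-MF, with Gp9 at 0, against 32.5 and 29.7 for Mo-MF. Its part in the difference of Pdgfb was not tested. The list includes Pf4, a leading gene of cluster 1 described below, and the sum does not show which marker made it up. Igf1 differed less, with 10.2 and 10.3 in B-MF against 7.92 and 7.96 for Mo-MF, a log2 difference of 0.37 ± 0.05 (SE, limma adjusted p = 6.55e-04). Its counts were found in 95.8% to 99.2% of the cells of each culture library, but also in 98.2% of the 513 cells of a neutrophil-like cluster, so this share did not separate cell types. Vegfa was at 1.10 and 0.965 in B-MF against 1.12 and 1.01 for Mo-MF. The groups overlapped, and the log2 difference of -0.04 ± 0.07 (SE) did not pass the test (limma adjusted p = 0.724).

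Fn1 showed the largest difference of the 9 members tested, with 0.440 and 0.489 in B-MF against 2.85 and 3.07 for Mo-MF. This was a 6.36-fold ratio of the means and a log2 difference of -2.44 ± 0.06 (SE, limma adjusted p = 9.45e-08), and Fn1-positive cells made up 6.05% and 6.27% of B-MF against 34.9% and 34.2% of Mo-MF. Thbs1 was at 1.30 and 1.22 in B-MF against 2.52 and 2.51 for Mo-MF, without overlap (log2 difference -0.94 ± 0.05, SE, limma adjusted p = 5.13e-06). Spp1 was at 87.7 and 86.2 in B-MF against 91.5 and 94.4 for Mo-MF. All of its Mo-MF values were above the B-MF values, but the log2 difference of -0.10 ± 0.05 (SE) did not pass the test (limma adjusted p = 0.168). Without the neutrophil-like clusters and the cells set aside for fibroblast or basophil markers, Spp1 passed it at -0.18 ± 0.05 (SE, limma adjusted p = 0.0219). Spp1 was counted in at least 99.6% of the cells of each culture library and in 99.8% of the neutrophil-like cluster of 513 cells.

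**Figure D1:**
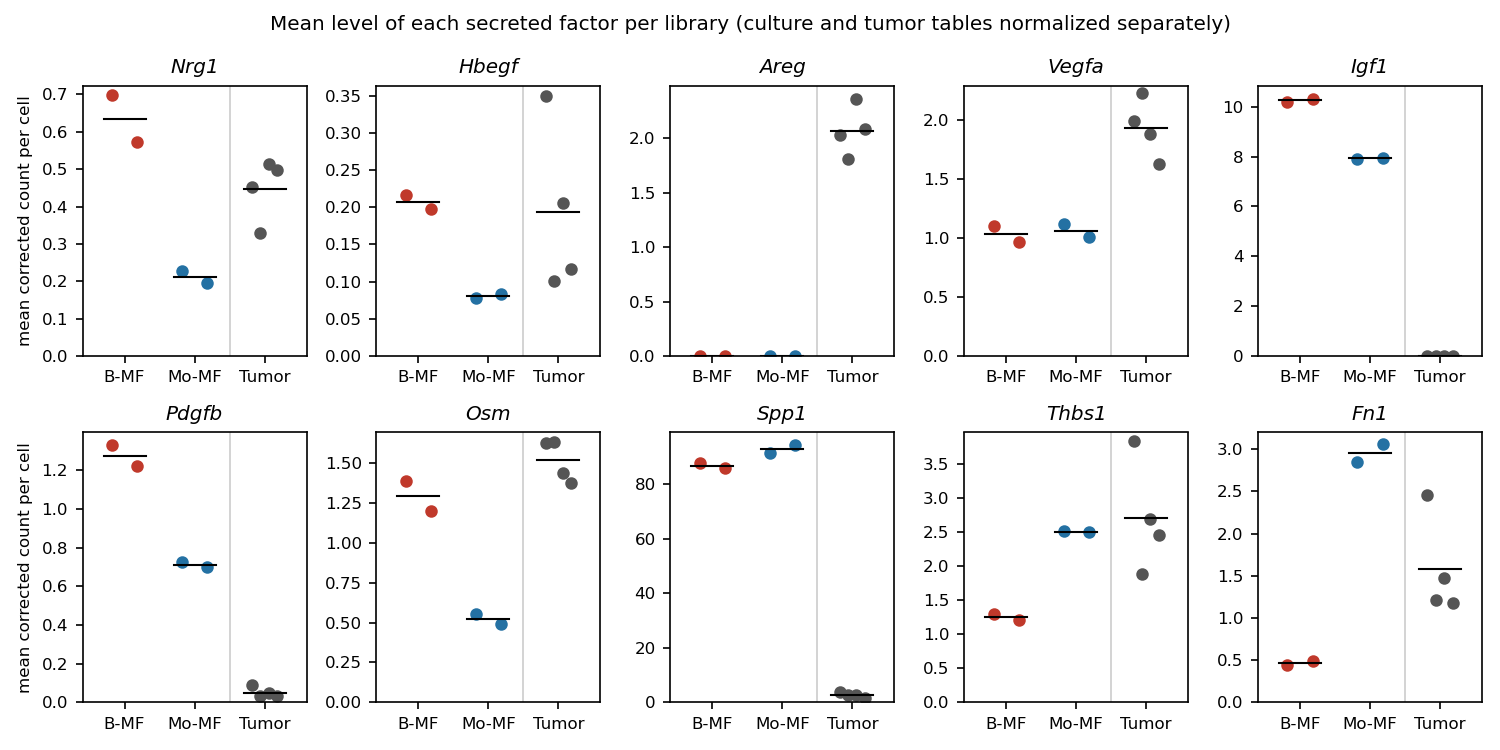
Mean corrected count per cell of each secreted factor (y axis, starting at 0) in the 2 B-MF, 2 Mo-MF and 4 Tumor libraries (points), with black lines at the group means and a grey line between the separately normalized tables. Nrg1, Hbegf, Pdgfb, Osm and Igf1 lie higher in both B-MF libraries, Thbs1 and Fn1 higher in both Mo-MF libraries, and Areg is seen almost only in the Tumor libraries.

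The replicates were libraries of one culture type, and nothing in the labels says that they came from separate mice. The p-values and SEs therefore rest on the spread between these libraries, which limma moderated over all genes tested. This spread may be technical. The immediate-early genes, which are transcribed within minutes of a stimulus or of cell handling, moved with the B-MF group: 13 of 16 tested were higher in B-MF (22.6% over all genes), none lower, with a median log2 difference of 1.18 against 0.02 over all genes. The 3 with the largest differences were Nr4a1 (log2 2.82 ± 0.06, SE), Egr1 (2.51 ± 0.07) and Fosb (2.44 ± 0.07), each with a limma adjusted p of at most 1.26e-07. Nr4a1 passed the filter only through B-MF, as did Egr3, another of the 13, so the count and the median depend in part on the filter. The list was also written with earlier results of these data known, and the study had already named Egr1, Ier2 and Ier3 for B-MF. Its count beside that of all genes is therefore a description. Mitochondrial counts were 7.92% and 7.70% of all counts in B-MF against 5.07% and 5.24% for Mo-MF. The part of either in the differences of Nrg1, Hbegf or Osm was not tested.

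Cycling cells formed a cluster with 391 and 360 cells in the B-MF libraries and 245 and 304 cells in the Mo-MF libraries, in which B-MF and Mo-MF were also compared. The immediate-early sum was higher in cycling B-MF as well, 53.4 and 52.5 per cell against 35.1 for each Mo-MF library. Within it 21.7% of all genes were called, and 6 of the 9 members. Nrg1 was at 0.174 and 0.222 in B-MF against 0.0735 and 0.0757 for Mo-MF (log2 difference 0.77 ± 0.10, SE, limma adjusted p = 6.13e-04), and Hbegf, Osm, Pdgfb and Igf1 were also higher in B-MF. Thbs1 was lower in B-MF (-0.72 ± 0.11, SE, limma adjusted p = 0.00139). Fn1, in contrast, was at 0.706 and 0.467 in cycling B-MF and at 1.01 and 0.717 in cycling Mo-MF, where the groups nearly met, and its log2 difference of -0.49 ± 0.18 (SE) missed the threshold (limma adjusted p = 0.0770). The comparison within this cluster was added after the data were seen.

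**Figure D2:**
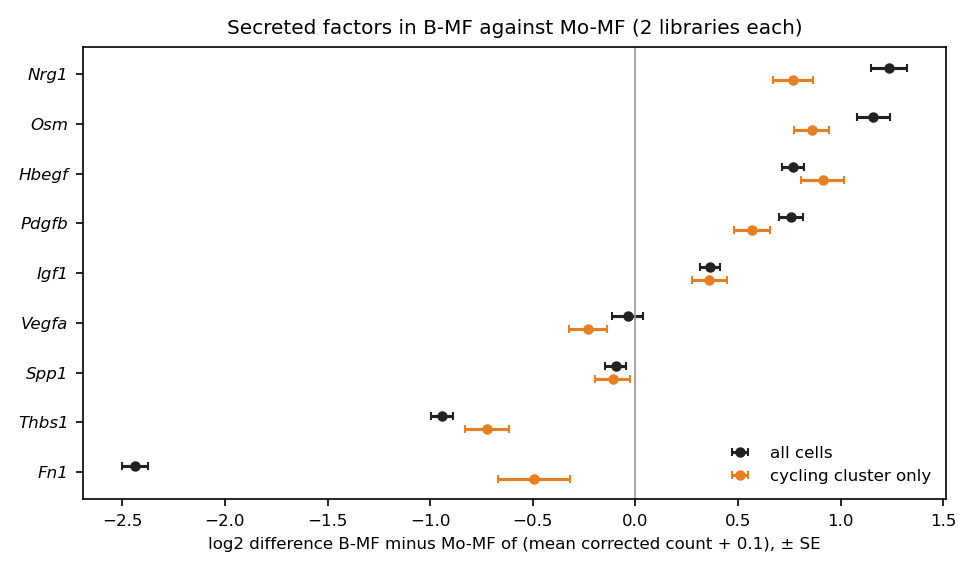
Log2 difference B-MF minus Mo-MF of the mean corrected count plus 0.1 (x axis) with its SE for the 9 members tested, over all cells (black) and in the cycling cluster only (orange). Fn1 lies at -2.44 over all cells and at -0.49 in cycling cells, whereas Nrg1, Osm, Hbegf, Pdgfb and Igf1 lie above 0 in both.

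Relatives of the members were examined through lists of ligands, receptors and processing enzymes. None of the other EGF family ligands passed the filter: Egf, Ereg, Epgn, Nrg2 and Nrg4 had means of at most 0.0172 in any culture library. The other interleukin-6 family ligands Il6, Lif, Clcf1 and Ctf1 were at most at 0.0119. Of the VEGF and PDGF ligands, 3 were tested, and Vegfb was slightly higher in B-MF (log2 0.15 ± 0.05, SE, limma adjusted p = 0.0445) while Pdgfa, a partner of PDGF-B in heterodimers, was lower (-1.12 ± 0.07, SE, limma adjusted p = 6.67e-06). Among 6 other growth factors tested, 3 were higher in B-MF and 2 lower (22.6% and 16.9% over all genes). The higher ones were led by Gas6, a ligand of TAM-family receptor kinases (11.9 and 11.5 against 5.07 and 5.04), and by Csf1, the ligand of CSF1R (0.357 and 0.339 against 0.155 and 0.125), with Grn as the third. Gdf3 and Hgf were lower (log2 -1.13 ± 0.07 and -0.50 ± 0.05, SE), Hgf passing the filter only through Mo-MF.

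Of 13 other matrix genes in the table, 4 were abundant enough to be tested, and these 4 were lower in B-MF, where 16.9% of all genes were. Vcan passed the filter only through its Mo-MF values, so the count depends in part on the filter. Mfge8, which bridges apoptotic cells to integrins, was at 1.94 and 1.90 in B-MF against 9.24 and 10.3 for Mo-MF, and Tgfbi and Vcan were lower by 1.14 and 0.87 on the log2 scale. Among the 9 below the filter several went the other way: Sparc was at 0.157 and 0.0884 in B-MF against 0.00124 and 0.00705 for Mo-MF, and Ctgf, Cyr61, Thbs2, Tnc, Col1a1 and Col3a1 were counted in both B-MF libraries and in neither Mo-MF library. Apart from Sparc, these were at most at 0.0629, and the share of all low genes with this pattern was not computed. Postn was lower in B-MF (0.00153 and 0.00244 against 0.0103 and 0.0113). Col1a1 and Col3a1 are also among the 5 fibroblast markers, whose sum was 0.162 and 0.142 per cell in B-MF against 0 and 0.021 for Mo-MF, and the part of such cells in the other values was not tested. Receptors of the members were split, 5 of 15 higher and 4 lower in B-MF, where 22.6% and 16.9% of all genes tested were called. Lifr and Nrp1, coreceptors for interleukin-6 family ligands and for VEGFA, were higher (log2 0.91 for each, ± 0.06 and ± 0.05, SE), Lifr passing the filter only through B-MF, and so was Itga4, an integrin chain that binds fibronectin and osteopontin. Kdr, a VEGF receptor, was lower (-0.75 ± 0.05, SE), as were Itga5, the fibronectin receptor chain, and Igf1r. Of 11 genes for shedding and processing, 1 was higher and 2 were lower, beside 39.5% called over all genes: Adam15 at 0.34, Adam8 at -0.56 and Adam17, the main sheddase of HB-EGF and amphiregulin, at -0.16 on the log2 scale. Of the IGF-binding proteins, Igfbp4 was at 3.68 and 3.41 in B-MF against 1.16 and 1.20 for Mo-MF, and Igfbp6, which passed the filter only through Mo-MF, at 0.0508 and 0.0469 against 0.404 and 0.318. Igfbp7, under the filter, was at 0.115 and 0.0772 in B-MF against 0.00392 and 0.00631 for Mo-MF.

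Clusters were built without the 10 members, so that their levels in a cluster did not place the cells there, and they are given as a description. Most B-MF cells fell into cluster 0, led by Myc, St3gal5 and Cdkn2a, and cluster 1, led by immunoglobulin transcripts, Pf4, Ier3 and Egr1. Leading genes were taken over the cells of all culture libraries together, and which library carried the immunoglobulin transcripts was not examined. The sum of 7 B-cell markers, Igkc among them, was 0.536 and 0.490 per cell in B-MF against 3.42 and 0.151 for Mo-MF. Nrg1 was at 1.06 and 0.853 in cluster 1 of B-MF 1 and B-MF 2 and at 0.428 and 0.287 in cluster 0, 2.47 to 2.97 times as high, and cluster 1 held 56.9% and 67.5% of the Nrg1 counts of the libraries. Thbs1 followed the same order (1.91 and 1.66 against 0.775 and 0.585), and Osm and Vegfa were also higher in cluster 1 in both libraries. Hbegf ran the other way, at 0.132 and 0.124 in cluster 1 and at 0.302 and 0.294 in cluster 0. Spp1, Igf1, Pdgfb and Fn1 were higher in cluster 0 in both libraries. Nrg1 and Hbegf, both EGF family ligands, had their higher levels in different B-MF clusters.

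Levels of Fn1 differed between the Mo-MF clusters. The Arg1- and Pdpn-led cluster 2 had Fn1 at 5.74 and 6.21 and 60.4% and 61.8% of the Fn1 counts of Mo-MF 1 and Mo-MF 2. The Mmp14- and Apoe-led cluster 3 had it at 2.75 in each library, and the Ly6a- and Ccl7-led cluster 4 at only 0.212 and 0.131. Thbs1 was higher in cluster 3, at 3.81 and 3.68. A small cluster of 121 cells with all 7 monocyte markers had Nrg1 at 2.63 and 2.16, Thbs1 at 14.4 and 13.1 and Osm at 2.61 and 3.37 in the 2 Mo-MF libraries. Although it was 1.22% and 1.15% of Mo-MF cells, it held 14.0% and 12.8% of their Nrg1 counts. Igf1 was low there, at 2.0 and 2.76. Neutrophil-like clusters held 27.8% and 24.4% of the Osm counts of Mo-MF and 11.5% and 11.4% of the Nrg1 counts. Without them, the monocyte cluster and the cells set aside for fibroblast or basophil markers, which held 4.31% and 0.984% of the Osm counts of Mo-MF, the difference of Nrg1 between B-MF and Mo-MF grew (log2 1.39 ± 0.09, SE), as did that of Osm (log2 1.54 ± 0.07, SE). In Mo-MF 1 all 5 fibroblast markers were at 0, so the cells set aside there carried basophil markers. All 6 basophil markers were at 0 in B-MF, so its 11 and 10 cells were set aside for fibroblast markers. These B-MF cells held 7.11% and 9.21% of the Fn1 counts and 1.77% and 6.01% of the Thbs1 counts.

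**Figure D3:**
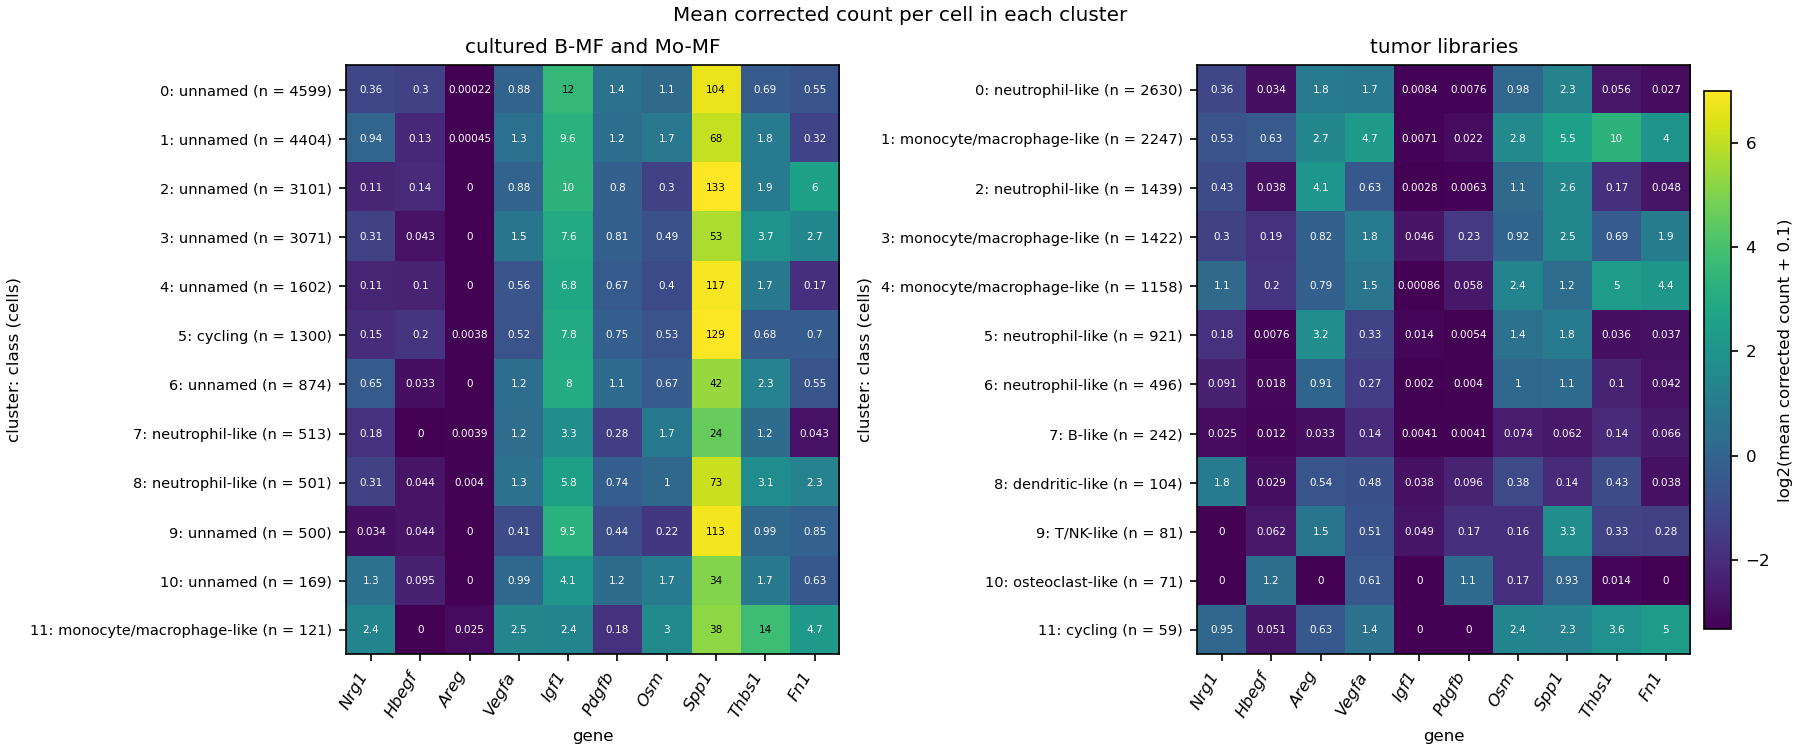
Mean corrected count per cell (numbers, color on a log2 scale of the mean plus 0.1) of the 10 genes (columns) in each cluster (rows, with its class and number of cells) of the cultures (left) and the tumor (right), which were normalized separately. Nrg1, Osm and Thbs1 peak in the monocyte-marked culture cluster 11, and Hbegf and Pdgfb in the osteoclast-like tumor cluster 10.

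In the tumor, 3 clusters with macrophage or monocyte markers (monocyte/macrophage-like) held 31.5% to 60.2% of the cells of a library, and 4 neutrophil-like clusters most of the rest. Tumor 2, with the most monocyte/macrophage-like cells, was highest for Thbs1, Fn1, Spp1, Hbegf and Pdgfb. It was also highest for the summed platelet markers, 3.98 against 0.983 to 1.59 per cell, whose part was not tested. Thbs1 ranged from 1.88 in Tumor 3 to 3.84 in Tumor 2, with 2.69 in Tumor 4 and 2.46 in Tumor 5. Within the monocyte/macrophage-like cells it lay between 5.72 and 6.42 in the 4 libraries, 46.8 to 116 times the level in neutrophil-like cells, and these cells held 95.4% to 98.1% of the Thbs1 counts. Fn1 followed the same order, at 2.84 to 3.99 in monocyte/macrophage-like and 0.0184 to 0.0707 in neutrophil-like cells. The cycling cluster of 59 cells, which met all 7 monocyte markers, also had Fn1 at 3.67 to 7.11 and Thbs1 at 2.07 to 8.22. In Tumor 4, 11 cells set aside for fibroblast markers held 10.7% of the Fn1 counts and 21.9% of the few Igf1 counts. Among the monocyte/macrophage-like clusters, Thbs1 was highest in the Sdc1-, Inhba- and Arg1-led cluster 1 (9.02 to 11.2), lower in the Ccr2-led cluster 4 (3.0 to 5.82) and lowest in the C1q-led cluster 3 (0.455 to 1.62), in 4 of 4 libraries.

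Vegfa was at 1.99, 2.23, 1.89 and 1.63 in Tumor 2 to Tumor 5 and was counted in 41.4% to 51.2% of the cells. It was highest in cluster 1 in 4 of 4 libraries, where 89.6% to 91.2% of the cells were positive and the mean was 4.33 to 5.38. The neutrophil-like cells of Tumor 3 had more Vegfa than those of the other libraries, 1.66 against 0.714 to 0.938. Over all cells the immediate-early sum was also highest in Tumor 3, 103 per cell against 76.4 to 85.0, and its part was not tested. Osm was at 1.62, 1.63, 1.44 and 1.38, with 2.52 to 3.04 in cluster 1, 2.16 to 2.56 in cluster 4 and 0.688 to 1.20 in cluster 3. Spp1, at 3.77, 2.87, 2.71 and 1.80, was concentrated in few cells, since the 5% of cells with the most Spp1 held 64.8% to 77.7% of its counts. In the cultures, where Spp1 was at 86.2 to 94.4, that share was 25.3% to 27.2%. There it also differed between genes, at 57.2% to 85.9% for Hbegf and 12.6% to 15.9% for Igf1. The part of level and depth in the contrast between tumor and cultures was not tested. Its monocyte/macrophage-like mean varied from 1.60 in Tumor 5 to 5.69 in Tumor 3, and it was above the neutrophil-like mean in 3 of 4 libraries.

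Areg set the tumor apart from the cultures. It was at 2.03, 1.81, 2.36 and 2.08 in the 4 Tumor libraries, in 13% to 19.0% of the cells, and positive cells carried it at a mean of 12.2 to 14.0 counts. The 5% of cells with the most Areg held 69.9% to 86.1% of its counts, and single cells reached 112 to 165 counts. Neutrophil-like cells had more Areg than monocyte/macrophage-like cells in 4 of 4 libraries (2.14 to 3.11 against 1.39 to 1.94) and held 53.7% to 74.7% of its counts. The share of Areg-positive cells was higher in neutrophil-like cells in 3 of 4 libraries, and in Tumor 3 it was lower, 12.4% against 15.1%. Of the clusters over 100 cells the interferon-response neutrophil cluster 2, led by Ifit1 and Isg15, had the most over all libraries, 3.35 to 5.33, although in Tumor 4 the neutrophil-like cluster 5 was higher (4.42 against 4.0). Positive cells were also frequent among T/NK-like cells, 23.5% of 81, and rare among B-like cells, 1.24% of 242, at median depths of 8364 and 7522.5 corrected counts. None of 71 osteoclast-like cells had a count of Areg, which allows a share of cells with a count of up to 4.23%.

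Nrg1 was at 0.452, 0.328, 0.513 and 0.498 in the Tumor libraries and was counted in 23.1%, 17.2%, 23.6% and 23.1% of the cells. Tumor 3 was the lowest on both measures. Monocyte/macrophage-like cells had 1.67 to 2.02 times the Nrg1 of neutrophil-like cells, and the Ccr2-led cluster 4 more than the other clusters of that class in 4 of 4 libraries (1.11, 0.793, 1.23 and 1.21). A cluster of 104 dendritic-like cells with Ccr7, Fscn1 and Ccl22 had still more, 1.89, 1.29, 2.10 and 1.74, with 52.9% of its cells positive. B-like cells were positive in 2.48% and T/NK-like cells in 0 of 81, which allows a share of cells with a count of up to 3.70%.

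Hbegf was at 0.349, 0.101, 0.206 and 0.117, highest in Tumor 2, and 70.4% to 92.5% of its counts lay in monocyte/macrophage-like cells. Its level there was 6.22 to 19.8 times that of neutrophil-like cells. Osteoclast-like cells, 71 cells with Acp5, Ctsk and Atp6v0d2, carried more Hbegf than the monocyte/macrophage-like class in 4 of 4 libraries (1.54, 1.56, 0.905 and 0.846). They also had the highest Pdgfb, 1.11, 1.11, 1.33 and 0.769, with 64.8% of cells positive, and although they were at most 0.88% of a library they held 9.90% to 25.0% of its Pdgfb counts. Over all cells Pdgfb was low, at 0.0903, 0.0337, 0.0469 and 0.0337, and among the monocyte/macrophage-like clusters it was highest in the C1q-led cluster 3 (0.140 to 0.278). Igf1, abundant in both cultures, was near absence in the tumor, at 0.0108 to 0.0148, with 12 to 26 positive cells in a library. Its share of 0.518% to 0.838% of cells stood beside 0.413% of the 242 B-like cells and 1.23% of the 81 T/NK-like cells. With so few B-like and T/NK-like cells, these shares are too coarse to set a background level.

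**Figure D4:**
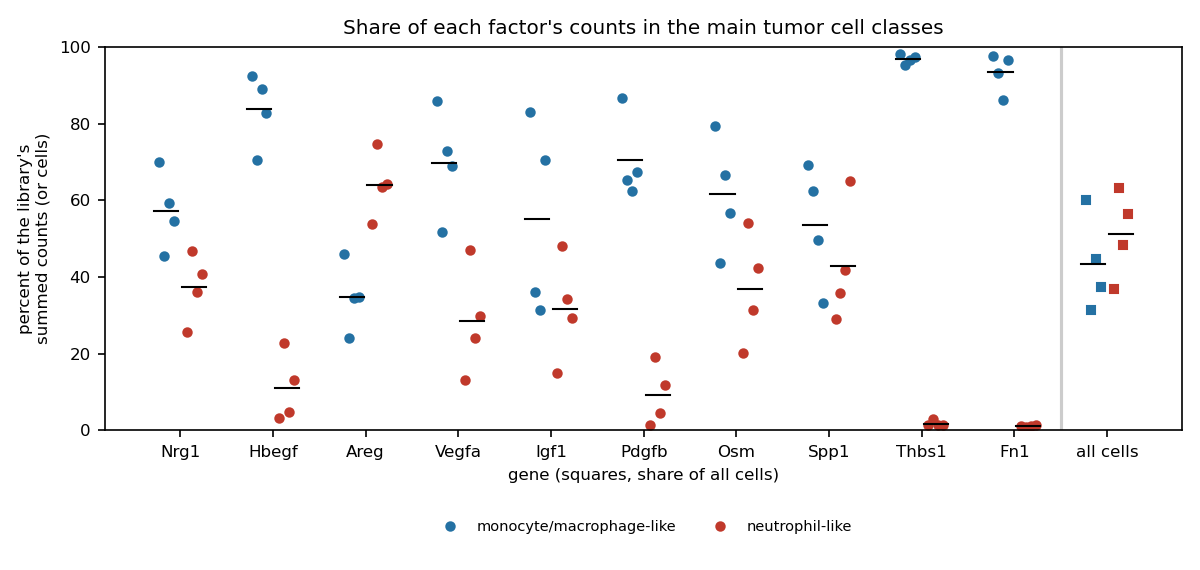
Percent of each factor's summed counts (circles) that lay in monocyte/macrophage-like (blue) and neutrophil-like (red) cells of each of the 4 Tumor libraries, with black lines at the means and, at the right, the percent of all cells (squares). Thbs1 and Fn1 lie at or above 86.1% in monocyte/macrophage-like cells, and Areg is the member with more counts in neutrophil-like cells in 4 of 4 libraries.

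The genes whose levels over the 12 tumor clusters were most like those of a member were found by Spearman's rho among 5905 genes, as a description over 12 points from shared libraries. For Areg they were Cxcl3 and Slc15a3 (rho 0.96 and 0.93), for Nrg1 Dram1 and Prkx (0.95 and 0.90), and for Hbegf Surf4 and Fam46a (0.97 and 0.95). Vegfa was closest to Cope and Zeb2 (0.92 for each), Osm to Dmkn and Diaph2 (0.92 and 0.91), and Spp1 to Egln1 and Higd1a (0.91 for each), both of which are known hypoxia-response genes. Thbs1 was closest to Ifi205 and Elmo2 (0.97 and 0.92) and Fn1 to Ly6c1 and Ly6c2 (0.92 for each), which mark monocytes.

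Chromatin at the promoters was read from peaks within 1000 bases of an annotated start in BMBP (GENCODE annotation of GRCm38, the mm10 build of the peaks). Hbegf, Vegfa, Osm and Thbs1 had such a peak in all 12 libraries, as did 51.9% of 21951 protein-coding genes, and Pdgfb in none, as did 34.2% of the genes. Areg and Fn1 carried promoter peaks throughout the 6 BM libraries but not in any of the 6 spleen libraries, a pattern of 3.39% of the genes. Igf1 had one in 5 BM libraries and Nrg1 in 4, 3 of them CSF1R+, and neither had one in spleen, so that 4 members had peaks in at least 1 BM library and no spleen library, as did 8.58% of the genes. None had the reverse pattern of all 6 spleen and no BM libraries (0.0911% of genes), or of all 3 CSF1R+ and no CSF1R- BM libraries (0.0774%). At Areg (chr5:91139599-91148432, + strand) the peak had a fold enrichment of 7.48 to 13.7 in BM, with the summit at -91 to -59 bases from the start. At Fn1 (chr1:71585520-71653200, - strand) it was 11.5 to 16.0, with the summit at -123 to -48 bases from a start. Igf1 (3.91 to 6.05) and Nrg1 (4.80 to 6.98) had lower values in the BM libraries where a peak was listed. Spp1 (chr5:104435118-104441050, + strand) had 22.6 to 27.6 in BM and, where a peak was listed, 4.78 to 7.21 in 4 spleen libraries. Thbs1 was also higher in BM (9.55 to 13.1 against 4.47 to 8.28), whereas Vegfa (10.6 to 12.9 against 16.1 to 20.1) and Osm (10.3 to 12.3 against 13.7 to 18.5) were higher in spleen, each without overlap. The share of all genes with such a shift between the tissues was not computed. The highest peak was not at one site in every library: in CSF1R-minus-Spleen 3 the Vegfa value of 17.9 came from another start inside the gene (chr17:46022360-46022785), and the Thbs1 summit lay at -70 to -40 in 3 BM libraries and at -654 to -595 in the other 9 libraries. The highest Nrg1 peak lay at chr8:31950011-31950246 in CSF1R-plus-BM 2 and overlapped chr8:31918469-31918896 in the other libraries that had one. The highest Osm peak lay inside the gene, 1216 to 1282 bases after the start. CSF1R+ and CSF1R- libraries of one tissue overlapped for the members with a peak in all 3 of each. BM libraries listed 65832 to 76530 peaks and spleen libraries 43407 to 50392, and the part of this difference in the pattern was not tested.

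The 250 bases before the start are printed for 3 members to show the sequence under these peaks, namely Areg (BM only), Spp1 (much higher in BM) and Vegfa (a peak near a start in all 12). They are from RefSeq (GRCm38.p6), read 5′ to 3′ along the gene, and capitals mark matches, on either strand, to the elements TGACGTCA (cyclic AMP response), TGANTCA (AP-1), ACGTG (hypoxia response core), GGGCGG (Sp1), GGAAGT (Ets core) and TATAAA (core promoter element).
Areg, chr5:91139349-91139598, + strand: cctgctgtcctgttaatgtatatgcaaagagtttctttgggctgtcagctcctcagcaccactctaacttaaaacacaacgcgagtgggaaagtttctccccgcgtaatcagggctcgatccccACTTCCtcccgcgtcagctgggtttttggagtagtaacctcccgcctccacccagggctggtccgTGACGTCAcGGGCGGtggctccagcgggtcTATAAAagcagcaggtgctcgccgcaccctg
Spp1, chr5:104434861-104435110, + strand: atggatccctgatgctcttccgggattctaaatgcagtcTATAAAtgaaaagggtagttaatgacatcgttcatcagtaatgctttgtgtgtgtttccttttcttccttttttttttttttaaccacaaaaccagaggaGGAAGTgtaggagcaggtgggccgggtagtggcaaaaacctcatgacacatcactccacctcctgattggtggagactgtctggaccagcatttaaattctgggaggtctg
Vegfa, chr17:46032378-46032627, - strand: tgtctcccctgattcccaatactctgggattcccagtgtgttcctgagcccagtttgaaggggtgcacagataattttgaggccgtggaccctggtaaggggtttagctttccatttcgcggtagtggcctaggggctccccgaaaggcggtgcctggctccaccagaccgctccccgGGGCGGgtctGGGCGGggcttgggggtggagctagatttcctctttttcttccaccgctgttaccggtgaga
The Areg sequence holds TGACGTCA at -61 to -54 bases from the start, next to GGGCGG, and TATAAA at -31 to -26. The full TGACGTCA element is found in 1.55% of 32851 promoters of this length and TATAAA in 12.4%. Spp1 holds TATAAA farther from the start, at -211 to -206, and GGAAGT (19.7% of promoters), and Vegfa holds GGGCGG at 2 places (32.7% of promoters). A second Vegfa entry, chr17:46025164-46025413, not printed, holds ACGTG (16.6% of promoters) at -211 to -207 and another GGGCGG. Promoter entries matched for Areg, Vegfa, Igf1 and Spp1, and the others are named only.

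**Figure D5:**
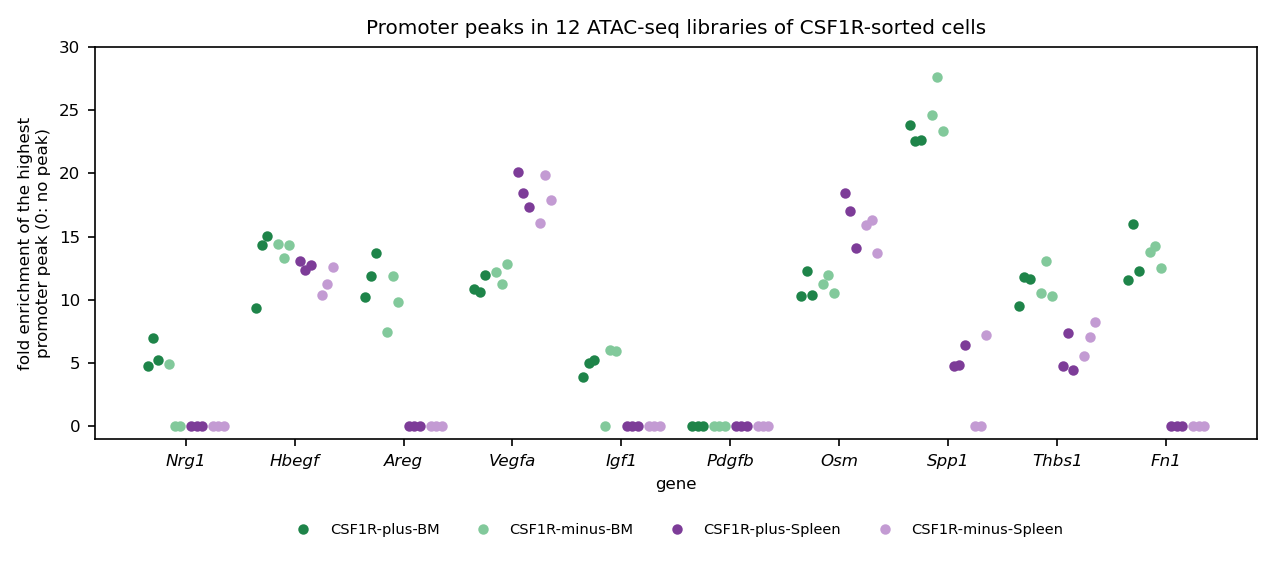
Fold enrichment of the highest peak within 1000 bases of a start (y axis, 0 where no peak was listed) for each member in 3 libraries of each of the 4 groups of sorted BMBP. Areg, Fn1, Igf1 and Nrg1 have peaks in BM (green) and none in spleen (purple), Spp1 is higher in BM, Vegfa and Osm are higher in spleen, and Pdgfb has none.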

How the data were processed

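Single-cell RNA-seq of cultured and tumor cells and ATAC-seq of sorted cells were taken as deposited. Per the labels and the submitters' processing notes, Cell Ranger, STAR, cutadapt, BWA and MACS2 with the mm10 build were used. The deposited expression values are the natural log of 1 plus an SCTransform-corrected count per cell, made by the authors separately for cultures and tumor, and whole counts were returned from them by inverting the log. The deposited peak tables, called by the authors in each library, give the fold enrichment over background and the −log10 q value of each peak, without read counts, so no interval was computed for peaks.

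Library means over all cells were compared between B-MF and Mo-MF (2 libraries each) on the log2(mean + 0.1) scale with limma 3.58.1 (R 4.3.3), after a filter at a mean of 0.1, and p-values were adjusted by Benjamini-Hochberg over all 8633 genes. Such fold changes understate those of low genes. Tumor libraries carry the numbers of the table, which do not match the titles, and are described without a test. Cells were clustered without the members (leidenalg 0.10.2, resolution 0.5, 30 principal components, 2000 genes) and named from at least 3 markers. Clusters, naming thresholds and the cells set aside (at least 20 counts of fibroblast or basophil markers) were settled after seeing the data. Doublets were not called. Cells were thinned to 5000 counts, and none was shallower. All 10 members were described, and genes of the related lists were named by the size of their difference among those called, at most 3 in each direction. The members and lists were chosen with earlier results of these data known. The limma fit was tested on simulated data. Intervals and limits cover counting error only.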

Additional observations from a re-analysis of the deposited data

Results flagged for a closer look

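Among the 60 sets of 4 Tumor libraries examined, 2 held a library that stood apart from the others by Dixon's criterion at 95%, and chance gives about 1 in 20 such sets. The share of Nrg1-positive cells was 17.17% in Tumor 3, against 23.1% to 23.6% in the other libraries, with a gap of 0.920 of the whole range. Pdgfb had a mean of 0.1302 corrected counts per cell in the monocyte/macrophage-like clusters of Tumor 2, against 0.0607 to 0.0700 in the others, with a gap of 0.867 of the range.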

How the results depend on the processing

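Over the 16 alternatives, 6 to 8 of the members were called between B-MF and Mo-MF, and leaving out 1 library gave 7 to 8, where the lone library of a group is assumed to vary like the other group. Over all genes 39.5% were called, 60.3% and 63.7% without B-MF replicate 1 or 2, and 23.7% and 25.0% without Mo-MF replicate 1 or 2. With a filter at a mean of 0.5, 3 members were called higher, because Nrg1 and Hbegf were no longer tested. Another 3 of the 7 members tested were called lower, beside 65.5% of 4045 genes called in either direction. In the cycling cluster alone, 1 was called lower, since Fn1 missed the threshold. Vegfa, which was not called, had log2 differences from -0.13 to 0.051 when 1 library was left out, and 0.0075 without the neutrophil-like and monocyte-like clusters and the cells set aside, an alternative added after the data were seen. Spp1 passed the test under 7 alternatives (limma adjusted p 0.00155 to 0.0385). With the replicate block 7 members were called, 5 of them higher, beside 45.3% of all genes called. The B-MF and Mo-MF libraries share only a number, and the deviations of same-numbered libraries correlated at 0.126 over 8633 genes. Of all genes called, 57.3% were higher in B-MF, 43.6% without B-MF replicate 1 and 70.2% without B-MF replicate 2. In the tumor, with the libraries pooled, 9 members had most of their counts in monocyte/macrophage-like cells, and 7 to 9 when 1 library was left out. In single libraries this share fell to 31.3% for Igf1, 33.2% for Spp1, 43.7% for Osm and 45.4% for Nrg1. These cells were 31.5% to 60.2% of a library, with median depths of 8510 to 8548 corrected counts against 7482 to 7518 in neutrophil-like cells. How many of all genes had such a majority was not computed. Within 100 bases of a start, 2 members had a peak in all 12 libraries, against 4 within 1000 bases. The read depth behind the peaks is unknown.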
